A study of Homo sapiens with 4 samples.

Results

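The transcripts of a gene can end at alternative poly(A) sites, and at 1332 loci of the DICER(ex5) cells exactly 2 poly(A) regions, with 3' ends more than 1000 bases apart, shared the reads. They were chosen from a table of read counts at 31081 poly(A) regions. Regions of a strand were joined into a locus when the start of one lay at most 5000 bases past the end of the previous one, which gave 17963 loci. To be kept, a region needed 10 reads in the 4 libraries together and 5% of what its locus held, and a locus needed at least 100 reads in its kept regions. Of 5070 loci with several kept regions and 100 reads, 2971 had exactly 2 kept regions, and the 1332 make up 44.8% of these. A further 137 loci with ends as far apart had fewer than 100 reads and were left out.

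The study has a single group, DICER(ex5), a hypomorphic Dicer line derived from HCT116, an established line from a human colon carcinoma. Dicer is the enzyme that processes microRNA precursors into mature microRNAs. All 4 libraries are of this line, called biological quadruplicates in the design text, and no parental line or other control was analysed here, so nothing below measures an effect of Dicer. The cells were grown without a treatment that the labels name. The label does not say whether the line is a single clone. The libraries held from 2163977 to 5713530 reads, and the loci described here held 1660728 reads, or 9.73% of the table. Whether the libraries came from separate cultures is not stated beyond the design text, so the SD over libraries measures only their own spread, which may be technical.

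Cleavage and polyadenylation release a transcript from the polymerase at a site marked by sequence elements around it. When a terminal exon holds several sites in tandem, use of the proximal one gives a shorter 3' untranslated region, with fewer binding sites for microRNAs and RNA-binding proteins. A proximal site in an intron gives instead a transcript with another last exon. Far-apart ends on a strand can also belong to neighbouring genes. No annotation or genome of hg19, the build named in the submitters' processing notes, was used here. Loci are therefore named by their position on hg19, no gene or sequence is given, these cases are not separated, and the line was not checked against marker genes.

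The distal share is the percentage of the kept reads of a locus that fell in the more 3' region, and its values were spread over the whole range that the rule allows. With the 4 libraries pooled, 288 loci lay under 20%. The share was 20% to 40% at 211, 40% to 60% at 180, 60% to 80% at 268, and 80% or more at 385, with each lower bound included. With the 5% minimum, the class around an even division was thus the smallest of the 5, and the distal end of the range was the fullest. By library, the class under 20% held 22.2% ± 0.503 of the loci, that around the middle from 12.9% to 15.1% (SD 0.951, n = 4) and the class of 80% or more held 29.9% ± 1.45 (SD, n = 4). The median distal share was 57.7%, 56.1%, 57.5% and 57.4% in libraries 1 to 4, or 57.2% ± 0.705 (SD, n = 4). The quartiles were 22.7% ± 0.553 and 83.0% ± 0.963 (SD, n = 4). The distal region held over 50% of the reads at 55.0% ± 0.461 of the loci (SD, n = 4). The 5% minimum removes shares under 5% and over 95%, so the ends of this distribution are set in part by the rule, and no test was made of its shape. With a minimum of 10%, the middle class held 17.3% ± 1.38 and the class under 20% held 16.7% ± 0.655 (SD, n = 4). The middle class was then no longer the smallest.

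The shape differed between loci read to different depths. At the 418 loci with under 300 reads the distribution had no dip: 22.7% of them lay from 40% to under 60%, 11.5% under 20% and 13.6% at 80% or more. No region of the table had fewer than 11 reads in the library where it was strongest. Among these 418 loci, 4 lay under 10% and 4 at 90% or more. This floor on the reads of a region keeps the least read of these loci from the extremes. The tails of this class are therefore set in part by the table. How far the floor bears on the missing dip was not tested. At the 501 loci with 300 to under 1000 reads the middle class held 9.58%, the lowest 25.1% and the highest 34.9%. At the 113 loci with 3000 reads or more the middle class held 7.96%, or 9 loci, against 29.2% under 20% and 38.9% at 80% or more. Among all 413 loci with at least 1000 reads, 37 lay from 40% to under 60%, 114 under 20% and 153 at 80% or more. Per library, the middle class of these 413 held 10.0% ± 1.09, the lowest 27.9% ± 0.232 and the highest 37.0% ± 2.27 (SD, n = 4). The dip in the middle was thus present from 300 reads on and absent below.

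**Figure D1:**
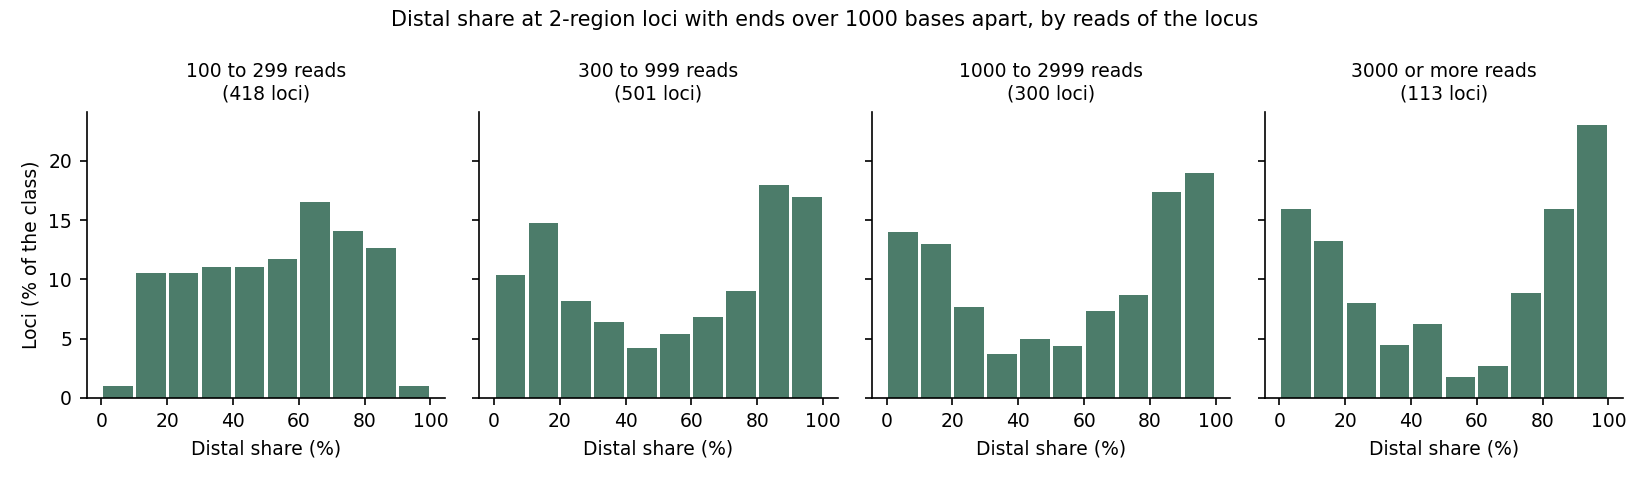
Percentage of loci (vertical axis) by distal share in steps of 10 percentage points (horizontal axis, pooled reads of the 4 libraries), in a panel for each class of kept reads of the locus. The 418 loci with under 300 reads show no dip, and the 113 loci with 3000 reads or more have 7.96% of loci from 40% to under 60%.

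A locus tended to keep its side of the even division. The distal region held over 50% of the reads in all 4 libraries at 616 loci and under 50% in all 4 at 481. The other 235 loci (17.6%) lay on both sides or exactly at 50% in a library. With at least 1000 reads, 212 loci were distal in all libraries, 169 were proximal in all and 32 (7.75%) were neither. Across loci, the share correlated between libraries with Pearson's r of 0.96 for libraries 1 and 2 and 0.97 for libraries 3 and 4, and of 0.86 to 0.91 in the other pairs. Loci of a library share its preparation and depth, so these values describe the libraries and carry no p-value.

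The reads, distances and widths of the loci varied with the share to different degrees. The median locus had 511.5 kept reads, with a range from 100 to 38847. Loci at the ends of the range were read more deeply, with medians of 758 reads under 20% and 727 at 80% or more, against 282.5 from 40% to under 60%. The floor on the reads of a region keeps the least read loci from the extremes, so this difference is set in part by the rule and the table. The median distance of the ends was 2141 bases (quartiles 1473 and 3185.5), and its median stayed between 2056.5 and 2215.5 in the 5 classes of share. Over the 1332 loci, Spearman's rho of distance and distal share was 0.0021. The region with more reads was also the wider one at 813 loci and the narrower one at 499, with median widths of 34 and 27 bases. Where the distal share was under 20%, the median proximal region was 38 bases wide and the distal one 25, and at 80% or more they were 29 and 37.

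Finer classes of distance gave unequal medians without an order. All libraries read the same loci, so the SDs here leave out the variation among loci, and the differences between these classes were not tested. The median distal share was 61.2% ± 3.25 at the 352 loci with ends up to 1500 bases apart, 51.7% ± 2.29 at the 443 over 1500 and up to 2500 and 59.4% ± 0.856 at the 514 over 2500 and up to 5000 (SD, n = 4). It was 73.5% ± 4.50 at the 23 loci with ends more than 5000 bases apart (SD, n = 4). Of these 23, however, 54.3% ± 2.51 had a distal share over 50%, against 55.0% of all 1332 (SD, n = 4). Those under 20% made up 21.7% ± 5.02, against 22.2% of all 1332 (SD, n = 4). At 20 of these 23, the locus contained further regions that were too weak to be kept. The rule requires such a region wherever the gap between the 2 kept ones exceeds the joining distance of 5000 bases. The share of loci under 20% was 21.6% ± 1.01, 25.0% ± 0.999 and 20.3% ± 1.13 in these 3 classes up to 5000 bases, in the same order (SD, n = 4).

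Against loci with 2 regions and closer ends, the proximal end of the range was fuller. A distal share under 20% was found at 22.2% of the loci described here, 16.9% of the 832 loci with ends over 250 and up to 1000 bases apart (the intermediate class) and 19.9% of loci with ends up to 250 bases apart. The difference from the intermediate class was 5.29 ± 0.852 percentage points and that from the closest class 2.30 ± 0.577, higher in 4 of 4 libraries each time (SD, n = 4). The median distal share minus that of the intermediate class was -7.37 ± 0.693 points, negative in 4 of 4 libraries (SD, n = 4). Minus that of the closest class it was -2.36 ± 1.21 points, again negative in 4 of 4 (SD, n = 4). Each of these differences had the smallest p that an exact two-sided sign-flip permutation over 4 libraries can give, which is above 0.05, so none can pass that threshold. All libraries read the same loci, so the variation among loci is not in these SDs. The difference from the closest class depended on the rule. It was -0.31 and -0.12 points with regions joined within 2000 and 10000 bases, -0.77 with a region minimum of 10% and -0.078 with one of 50 reads, where the exact permutation p ran from 0.375 to 0.875. The difference from the intermediate class was -3.45 and -4.11 points with regions joined within 2000 and 10000 bases and -12.5 with a minimum of 500 reads per locus. Chosen without library 3, the loci had a median 1.18 points above that of the closest class. With regions joined only within 1000 bases, 90 loci remained, and their median was 17.0 points above the intermediate class and 19.2 points above the closest one.

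**Figure D2:**
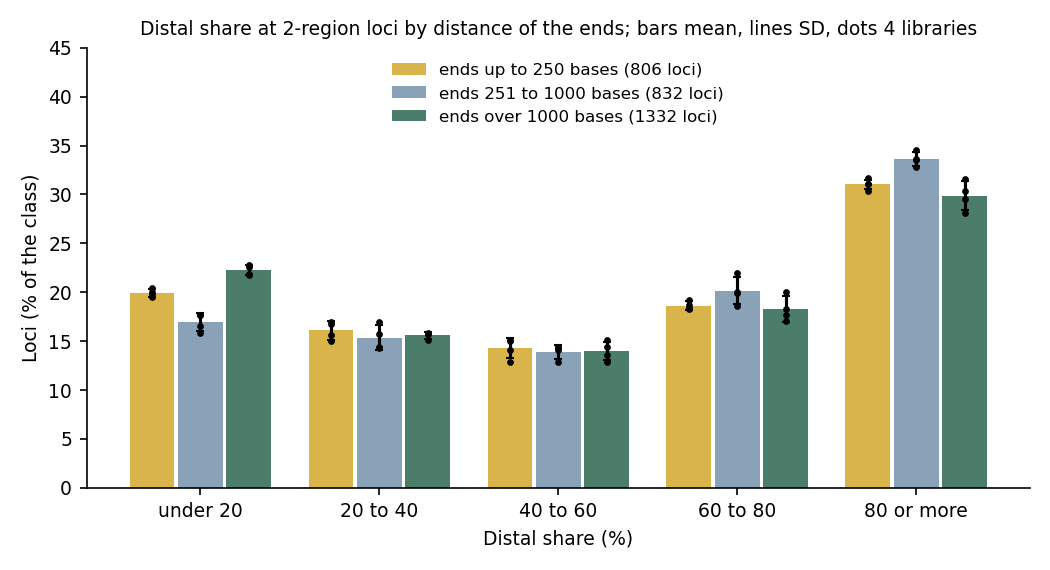
Percentage of loci (vertical axis) in 5 classes of distal share (horizontal axis) for 2-region loci with ends up to 250, over 250 and up to 1000, and over 1000 bases apart. Bars are means, lines SD and dots the 4 libraries; in the class under 20% the loci with ends over 1000 bases apart stand at 22.2%, above 16.9% and 19.9%. The class up to 250 bases is drawn for the 806 of its 807 loci with reads in every library.

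How much of the spread between libraries comes from counting was calculated from the binomial variance of the share, given the kept reads of a locus in each library. Over the 1332 loci, the SD of the distal share between the 4 libraries was 9.13 percentage points (root mean square over loci), and counting alone gives 5.18. Counting thus accounted for 32.2% of the variance, the observed variance was 3.11 times the counting variance, and 7.52 points of SD were left beyond counting. The variance ratio of single loci had a median of 1.82 and ran from 0.0094 to 567. It was below 1 for 397 loci, 1 to 2 for 313, 2 to 5 for 331, 5 to 10 for 150, 10 to 50 for 124 and above 50 for 17, lower bounds included. With 4 libraries a single ratio is itself imprecise. The counting variance takes reads as independent, and whether PCR duplicates were removed is not given in the labels.

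The counting part shrank with reads as it must, and the rest did not vanish. Below 300 reads, the observed SD was 12.7 points and the counting SD 8.06. At 300 to under 1000 reads they were 7.28 and 3.78, at 1000 to under 3000 reads 6.82 and 2.10, and at 3000 reads or more 5.40 and 1.08. Counting thus gave 40.4% of the variance in the first of these classes and 4.01% in the last. The SD beyond counting was 9.79, 6.23, 6.49 and 5.29 points in the 4 classes. At the same depths, 2-region loci of the intermediate class had 10.1, 5.57, 4.42 and 4.85 points beyond counting, and those with closer ends 7.80, 5.72, 5.90 and 7.54. No order of the distance classes held at all depths. Over all depths, the variance ratio was 3.02 and 2.77 in these classes and 3.13 over all loci with several kept regions, close to the 3.11 of the loci described here.

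**Figure D3:**
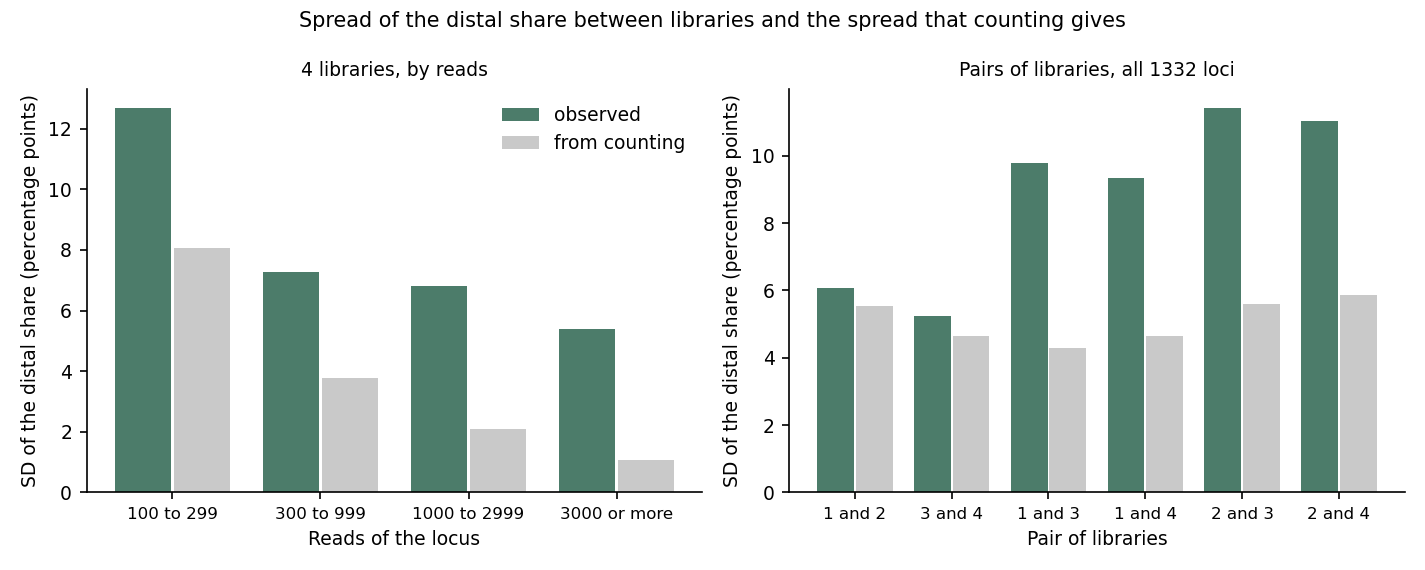
SD of the distal share between libraries in percentage points (vertical axes; root mean square over loci), observed and from counting, by reads of the locus over the 4 libraries (left) and in each pair of libraries (right). Libraries 1 and 2 stand at 6.08 against 5.54 from counting, and libraries 2 and 3 at 11.4 against 5.60.

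The spread beyond counting lay mostly between libraries 1 and 2 on one side and libraries 3 and 4 on the other, a division seen in the data and not a grouping of the study. Between libraries 1 and 2 the SD was 6.08 points, of which counting gives 5.54, or 83.2% of the variance. Between libraries 3 and 4 it was 5.25 with 4.66 from counting, or 78.8%. In the other 4 pairs it was 9.34 to 11.4 points, and counting gave 19.3% to 28.3% of the variance. With at least 1000 reads, libraries 1 and 2 had an SD beyond counting of 1.98 points and libraries 3 and 4 one of 1.14, against 6.62 to 8.31 in the other pairs. No day or batch is named in the labels or the table headers, so a batch and a biological difference of the cultures cannot be told apart.

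The same division was seen locus by locus. The difference of library 3 from library 1 and that of library 4 from library 2 share no library, and over the 1332 loci they correlated with Pearson's r of 0.71 (Spearman's rho 0.61). Libraries 1 and 2 were alike, as were libraries 3 and 4, and the pairs were set after this was seen. The correlation therefore restates the division and does not test it. Over the 413 loci with at least 1000 reads r was 0.91. The difference of library 2 from library 1 and that of library 4 from library 3 had an r of -0.0050 over all loci. Both directions occurred. The distal share was over 10 points higher in both of the first 2 differences at 134 loci, over 10 points lower in both at 118 and over 10 points apart in opposite directions at 23. The median difference was small, 0.53 points for library 3 minus library 1 and 0.38 for library 4 minus library 2. With at least 1000 reads, 36 loci were over 10 points higher in both and 20 over 10 points lower. The counts over 10 points were not made for all loci with several kept regions, so nothing particular to far-apart ends can be read from them.

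**Figure D4:**
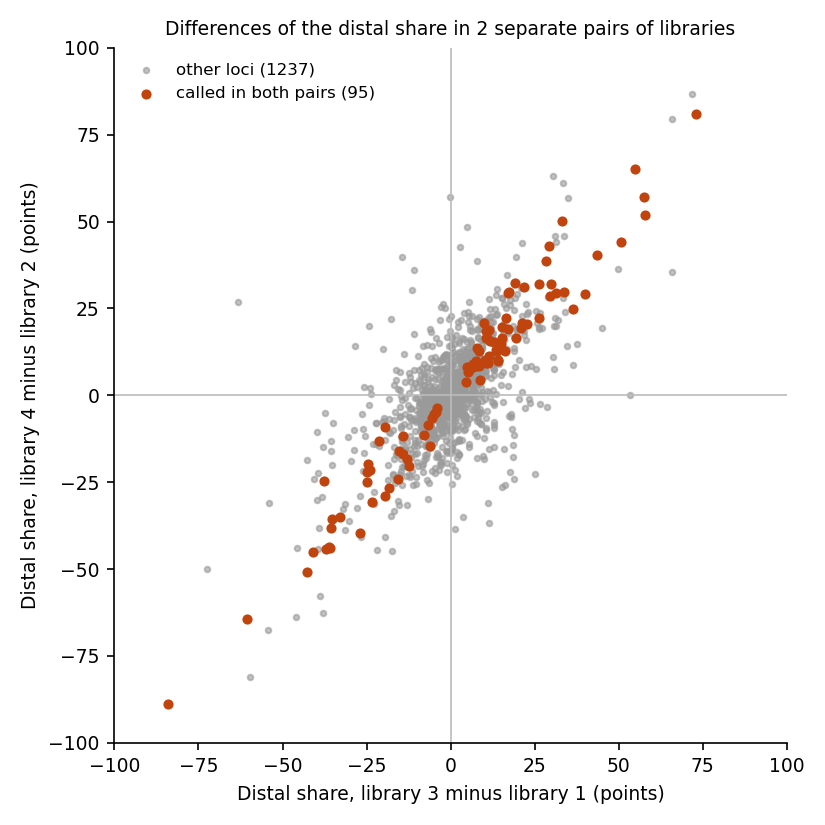
Each point is a locus; the horizontal axis gives the distal share in library 3 minus that in library 1, and the vertical axis that in library 4 minus that in library 2, in percentage points. The 95 loci called in both pairs lie along the diagonal in both directions; grey points are the other loci.

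Fisher's exact test per locus, on counts thinned to the same library total and adjusted by Benjamini-Hochberg over all 5070 loci with several kept regions, found the same division. Between libraries 1 and 2, 2 of the 1332 loci were called at an adjusted p under 0.05, against 0.237% of all loci tested. Between libraries 3 and 4, 0 were called, against 0.0592% of all loci, and 69 (5.18%) had an unadjusted p under 0.05, against 5.19% of all loci. Between libraries 1 and 3, 146 were called against 10.0% of all loci, and between libraries 1 and 4, 130 (9.76%) against 8.66%. Between libraries 2 and 3, 209 (15.7%) were called against 15.2% of all loci, and between libraries 2 and 4, 196 (14.7%) against 14.1%. Each of these shares, under the main rule, is near that of all loci, so nothing particular to far-apart ends can be read from them. With regions joined only within 1000 bases the shares lay above those of all loci. Of the 90 loci left, 20 were called between libraries 1 and 3 and 29 between libraries 2 and 3, against 9.26% and 14.2% of all loci. The reason was not tested. Such a test compares libraries and not conditions, and it takes reads as independent, so its p covers counting error only. Thinning at random moved these counts: in 2 further draws, added after seeing the data, the 4 larger counts ran from 120 to 218 (9.05% to 16.0% of all loci), and those between libraries 1 and 2 were 4 and 3 (0.434% and 0.375%). Without thinning, 332 loci were called between libraries 1 and 3, against 23.4% of all loci. Without library 2, the smallest, both the choice of loci and the thinned total changed. Then 259 loci were called between libraries 1 and 3 (against 18.3% of all loci) and 223 between libraries 1 and 4 (against 16.3%).

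Called in library 1 against library 3 and also in library 2 against library 4 were 95 loci (7.13%, against 6.67% of all loci tested). They are 65.1% of those called in the first pair and 48.5% of those in the second. Of all loci tested, 338 were called in both, out of 509 in the first pair and 714 in the second. Those are similar proportions, and the pairs were set after the division of the libraries was seen. The distal share was higher in libraries 3 and 4 at 61 of the 95 loci (4.58% of the 1332, against 3.98% of all loci) and lower at 34 (2.55%, against 2.68%). Their smaller difference was 15.5 points at the median and ran from 3.55 to 84.1. At 22 of them, libraries 1 and 2 lay on one side of 50% and libraries 3 and 4 on the other. They were read more deeply than the rest, with a median of 1728 reads against 482, and 72 of them had at least 1000 reads. Fisher's exact test calls deeply read loci more readily, so the depth of the 95 is set in part by this choice. Their ends lay a median of 2427 bases apart, against 2119 for the rest. In CPM, which are reads scaled to 1000000 per library, only the proximal region changed at least 2-fold in both pairs at 36 of the 95 loci, and it was lower in libraries 3 and 4 at 27 of these. Only the distal region changed so at 27 loci, higher in libraries 3 and 4 at 13 and lower at 14. At 2 loci both regions changed in opposite directions, and at 30 neither reached 2-fold in both pairs. These counts of levels, and that of loci crossing 50%, were not made for all 338 loci called in both pairs. Nothing particular to far-apart ends can therefore be read from them.

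Narrow regions went with a larger spread. At 58 loci (4.35%) a kept region spanned no more than 10 bases, and their SD between libraries was 18.0 points with 7.49 from counting, a variance ratio of 5.78. The ratio was 2.38 at the loci whose narrower region had 11 to 20 bases and 3.35 at those with wider ones. Without the 58 loci the variance ratio of the rest was 2.84. Of the 95 loci called in both pairs, 6 had such a region.

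The largest ratios of observed to counting variance, among the 492 loci with at least 100 kept reads in every library, belonged to strongly read loci whose libraries split into the same pairs. Counting variance falls as reads rise, so this ranking favours strongly read loci by construction. At a minus-strand locus of chromosome 3 (101399931 to 101404691, ends 4721 bases apart) the distal share was 25.5%, 15.5%, 98.6% and 96.4% in libraries 1 to 4. The proximal region had 345, 197, 20 and 25 reads and the distal one 118, 36, 1418 and 675. Its level thus fell at the proximal region and rose at the distal one in libraries 3 and 4, and the SD of 44.7 points compares with 1.88 from counting.

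At a minus-strand locus of chromosome 8 (144656943 to 144661917, ends 4915 bases apart) the distal share was 62.5%, 72.3%, 25.4% and 27.9%. The distal region held 185, 158, 202 and 199 CPM, while the proximal one held 111, 60.5, 592 and 514 CPM. The distal levels lay close together, and the proximal ones were higher in libraries 3 and 4. At a plus-strand locus of chromosome 1 (156107617 to 156109884, ends 2218 bases apart) the distal share was 74.4%, 76.3%, 41.4% and 41.3%. The proximal region held 150, 132, 271 and 285 CPM and the distal one, 15 bases wide, 438, 425, 191 and 200.0. Here both levels differed, in opposite directions.

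The other loci of this kind moved less and had more reads. Plus-strand chromosome 19 held a locus (49465040 to 49470164, ends 5093 bases apart) where 28801 reads gave distal shares of 84.5%, 77.9%, 95.3% and 94.4%. The distal region held 1095, 740, 2032 and 1851 CPM and the proximal one 200, 210, 100 and 110. This locus was also called between libraries 1 and 2. At a plus-strand locus of chromosome 10 (102123349 to 102124597, ends 1210 bases apart) the shares were 87.3%, 90.1%, 71.8% and 74.1% of 23442 reads. Libraries 3 and 4 were lower here, against the direction on chromosome 19.

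Some loci were chosen after their values were seen. The other locus called between libraries 1 and 2 was a minus-strand locus of chromosome 17 (1421272 to 1423533), with distal shares of 65.1%, 81.2%, 59.6% and 59.5%; library 2 stood above the other 3. The largest difference common to both separate pairs was that of a minus-strand locus of chromosome 13 (39915165 to 39917039), where the shares were 87.3%, 88.8% and 3.23% in libraries 1 to 3. In library 4 the distal region had 0 of 27 reads, which allows a share of up to 11.1%. Its distal region was 6 bases wide and its proximal one 15. At a minus-strand locus of chromosome 19 (45910586 to 45912885) the shares were 94.2%, 90.5%, 33.6% and 26.2%. The proximal region there had 3, 2, 180 and 124 reads.

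**Figure D5:**
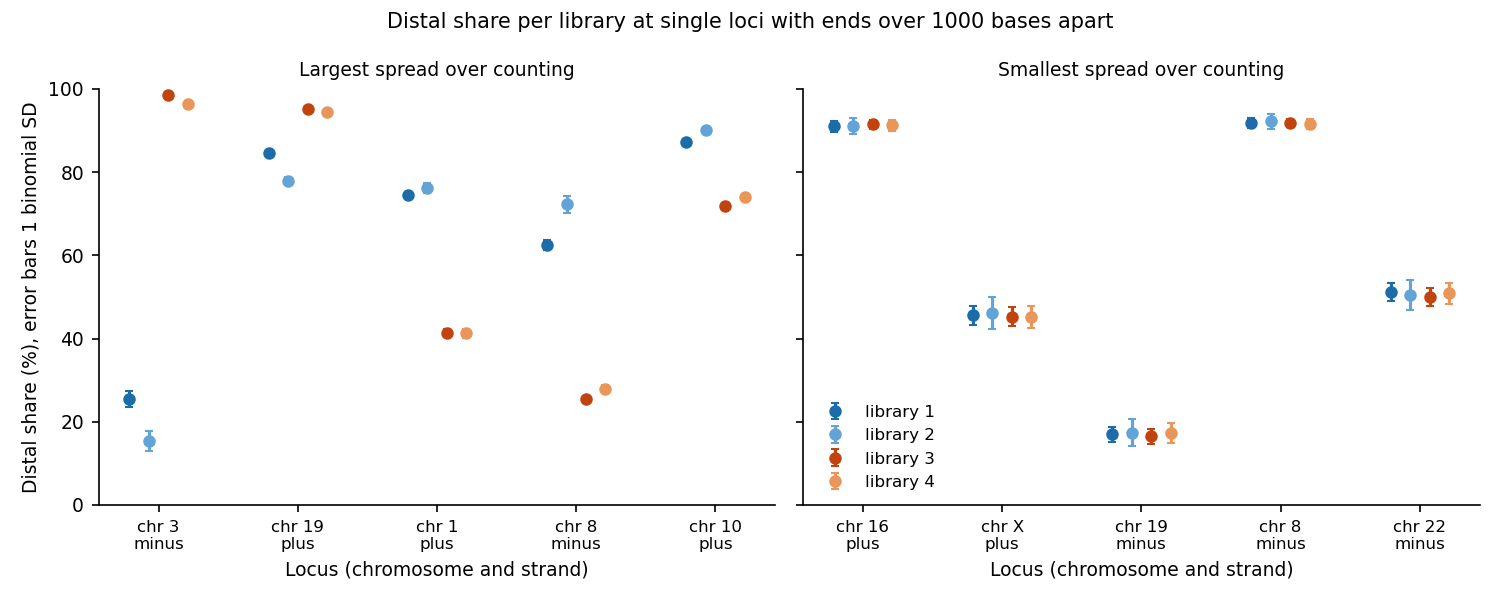
Distal share in percent (vertical axis) in each of the 4 libraries at the 5 loci with the largest (left) and the 5 with the smallest (right) ratio of observed to counting variance, named by chromosome and strand. Error bars are 1 binomial SD; at the left, libraries 1 and 2 stand apart from libraries 3 and 4 at each locus, and at the right the points overlap.

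At the other extreme, some loci gave nearly the same share in every library. At a plus-strand locus of chromosome 16 (23582165 to 23585721, ends 3528 bases apart) the distal share was 91.0%, 91.1%, 91.5% and 91.2%, an SD of 0.210 points where counting gives 1.43. Chromosome X had such a locus on its plus strand (11139970 to 11141229), with 45.6%, 46.2%, 45.3% and 45.2%. Another, a minus-strand locus of chromosome 19 (44150405 to 44152766), had 17.0%, 17.4%, 16.6% and 17.3%. At a minus-strand locus of chromosome 8 (17086722 to 17089028) the share was 91.9% ± 0.231 (SD, n = 4). At a minus-strand locus of chromosome 22 (41994017 to 41996924, ends 2839 bases apart) 1640 reads were divided almost evenly, with 51.2%, 50.5%, 49.9% and 50.9%. They were picked as the smallest of 492 ratios, so they show only that no spread beyond counting was detectable there. Their shares covered low, even and high values of the distal share.

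Read depth and distal share were nearly unrelated over the 1332 loci, with a Spearman's rho of 0.055. At the 113 loci with 3000 reads or more, 52.7% ± 1.69 had a distal share over 50% (SD, n = 4), against 55.0% of all 1332. Ranked by reads, the first was a minus-strand locus of chromosome 7 (26229718 to 26231556, ends 1733 bases apart). Its 38847 kept reads gave a distal share of 6.31%, 6.58%, 6.12% and 5.56%, close to the 5% minimum, and 15 regions lay in the locus in all. Of the 10 loci with the most reads, 7 had mean distal shares above 75%. In chromosome 12, on its plus strand, the locus at 56507679 to 56511642 had 92.5% ± 2.67 (SD, n = 4), with libraries 3 and 4 lower than libraries 1 and 2. The locus at 56551741 to 56555385 had 91.7% ± 0.455 and that at 6975751 to 6980040 had 78.8% ± 3.71 (SD, n = 4). The share was 93.2% ± 0.299 at a plus-strand locus of chromosome 8 (94937149 to 94938304) and 91.3% ± 2.40 at one of chromosome 7 (116199630 to 116201261; SD, n = 4). The proximal region held more reads at a plus-strand locus of chromosome 16 (2011952 to 2015524), with a distal share of 14.9% ± 2.64, and a minus-strand one of chromosome 1 (156707078 to 156711934), with 33.8% ± 4.53 (SD, n = 4). In each of the latter pair, library 2 had the lowest share and libraries 3 and 4 the higher ones. Whether the ends of a named locus belong to the same gene or to neighbouring genes was not determined, so a share may compare different genes. With regions joined within 2000 bases, 20 of the 40 loci named by rule still met the rule.

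The loci with the highest and lowest shares lie near the bounds that the rule sets and are given as a description. Among the 5 highest, 3 lay on minus strands: chromosome 13 (23902957 to 23904309) with 94.8% ± 2.90, chromosome 12 (49329978 to 49332552) with 94.6% ± 1.29 and chromosome 11 (61567076 to 61569750) with 94.3% ± 2.21 (SD, n = 4). The other two were plus-strand loci of chromosome 1 (84700954 to 84704203), with 94.6% ± 2.32, and chromosome 12 (22215315 to 22218624), with 94.2% ± 1.90 (SD, n = 4). At each of these 5, the share in library 3 was above that in libraries 1 and 2. Fisher's exact test called none of these differences at an adjusted p under 0.05. The lowest were on the minus strand, on chromosomes 22 (50883421 to 50885270, 5.01% ± 0.833), 1 (167885948 to 167887333, 5.20% ± 1.13), 10 (75570439 to 75572291, 5.09% ± 1.34) and X (152709913 to 152713154, 5.42% ± 1.32; SD, n = 4). The remaining one of these 5, a minus-strand locus of chromosome 11 (57172600 to 57174437), had 8.82%, 12.1%, 1.03% and 0.850%, and its distal region was 5 bases wide. Its 44, 29, 5 and 3 distal reads again divided the libraries into 1 and 2 against 3 and 4.

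Near an even division, shares crossed 50% within their own spread. At a plus-strand locus of chromosome 16 (30995957 to 31000478) the distal share was 48.2%, 43.5%, 53.5% and 49.7%, an SD of 4.12 points with 2.95 from counting. A minus-strand locus of chromosome 5 (159828643 to 159830169) had 50.8% ± 3.07 (SD, n = 4). The plus strand of chromosome 8 had 49.0% ± 2.75 at 99170622 to 99172094 and 51.2% ± 1.68 at 57130012 to 57131184 (SD, n = 4). The fifth was the chromosome 22 locus given above. Of these 5, only the chromosome 16 locus had an SD above that of counting.

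Where the ends lay farthest apart, within the 492 loci that had 100 reads or more per library, the distal region was the stronger one at each of the 5 loci chosen. With ends 8767 bases apart at a plus-strand locus of chromosome 7 (4802287 to 4811081) the share was 93.8% ± 2.39, and with 8671 bases at a minus-strand locus of chromosome 3 (50325154 to 50333838) it was 94.7% ± 0.547 (SD, n = 4). A plus-strand locus of chromosome 16 (724118 to 732818) had a share of 77.3%, 77.8%, 73.8% and 71.4%, lower in libraries 3 and 4. Plus-strand loci of chromosomes 9 (37428743 to 37437003) and 7 (99631047 to 99639318) had 89.5% ± 2.35 and 94.3% ± 1.65 (SD, n = 4). Each of these loci contained at least 1 further region that was not kept. No link of distance and share can be read from these 5 loci. Of the 23 loci in the farthest distance class given above, 54.3% ± 2.51 had a distal share over 50% (SD, n = 4). Of all 1332 loci it was 55.0%, and Spearman's rho of distance and distal share was 0.0021.

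At the bound of the rule itself, low and high shares occurred on both sides. Just inside, with ends 1001, 1002 and 1003 bases apart, the distal shares were 8.21% ± 1.35 for chromosome 1 minus (201433612 to 201434630), 80.8% ± 10.0 for chromosome 14 minus (53323978 to 53325008) and 93.0% ± 2.12 for chromosome 3 minus (125165483 to 125166498; SD, n = 4). Just outside, with 1000, 993 and 992 bases, they were 93.6% ± 1.43 at a plus-strand locus of chromosome 6 (117869946 to 117870969), 9.29% ± 1.99 at a minus-strand locus of chromosome 2 (190635034 to 190636043) and 83.1% ± 1.39 at a plus-strand locus of chromosome 11 (130013661 to 130014719; SD, n = 4).

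The loci were spread over the genome and mostly simple. They lay on 23 chromosomes, 674 on the plus and 658 on the minus strand, and chromosome 1 had the most, 137. Their share among 2-region loci ran from 38.3% on chromosome 13 (23 of 60) to 62.5% on chromosome 21 (20 of 32). At 1042 loci the 2 kept regions were the only ones, and at 290 weaker regions were also present, which held a median of 3.87% of the reads of the locus. A region of the opposite strand lay between the ends at 92 loci (6.91%), and one lay within 2000 bases past the distal end at 107 (8.03%).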

How the data were processed

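Poly(A) site sequencing, which reads the junction of a transcript and its poly(A) tail, was done on 4 libraries of DICER(ex5) cells. The table that the authors deposited gives, for each poly(A) region, an unnormalized read count in every library, per the file headers. Bowtie2 2.2.5 and hg19 appear, with no role given, in the submitters' processing notes. The sources used here do not say how regions were made or whether the degenerate primer bases served to remove duplicates. An oligo(dT) primer may anneal within transcripts at A-rich stretches, and no hg19 sequence was used here to mark them, so the planned hexamer, A-rich and gene list counts were not made.

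Loci, kept regions and members were built by the rule in the report, in Python 3.11.15 (numpy 2.4.6, pandas 2.3.3, scipy 1.17.1). Counting variance is p(1 - p) divided by the kept reads of each library, averaged over libraries, with p pooled. Fisher's exact test (two-sided) used counts thinned with a fixed seed to 2163977 reads, and the test and the variance ratio were checked on simulated data. The check failed its first 2 pass criteria, since fewer changed loci were recovered than these asked for. They were then replaced by a comparison with the power calculated for the thinned depth, which it met. Changed loci can thus go uncalled at this depth. Thinnings with other seeds were also tried while exploring. The loci named by rule comprise the top 10 by reads. Among loci with 100 reads or more per library, 5 each were taken for the highest, lowest and most even share, the farthest ends and the largest and smallest variance ratio, plus the 3 on each side of the 1000 base bound. The members and lists were chosen with earlier results of these data known, and the classes of depth, distance and width, the call in both separate pairs and the 2-fold level limit were set after seeing the data. Alternatives changed the joining distance, the region and locus minimums, merging, narrow regions, thinning, the threshold and the libraries used. The upper limit beside a count of 0 rests on 3 counts and on counting error alone.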

Additional observations from a re-analysis of the deposited data

How the results depend on the processing

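No paired analysis was possible because the study has a single group. With regions joined within 1000 bases, 90 loci remained, with a median distal share of 78.2%, 12.8% of them under 20%, 6.94% from 40% to under 60%, 47.2% at 80% or more and a variance ratio of 5.00; their median lay 19.2 points above the class up to 250 bases and 17.0 above the intermediate one (over 250 and up to 1000), and 0, 20, 15, 29 and 27 were called between libraries 1 and 2, 1 and 3, 1 and 4, 2 and 3, and 2 and 4, against 0.248%, 9.26%, 7.64%, 14.2% and 13.7% of all loci tested. Within 2000 bases there were 777 loci, with a median of 59.2%, 21.7% under 20%, a variance ratio of 3.41 and 1, 77, 63, 118 and 110 calls in the same pairs, against 0.242%, 9.46%, 8.01%, 14.7% and 13.6% of all loci. Within 10000 bases the median was 60.6%, the lowest class 21.7%, the highest 31.3%, the ratio 3.33, and 2 loci were called between libraries 3 and 4 (0.0751% of all loci).

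A minimum of 500 reads left 679 loci, with a median of 60.6%, 27.2% under 20%, 10.5% from 40% to under 60%, 36.2% at 80% or more, a ratio of 6.85 and 4 calls between libraries 1 and 2 (0.634% of all loci). Regions with at least 2% of the reads gave a median of 58.8% and classes of 24.3%, 12.8% and 33.0%. With 10% they gave 55.4% and classes of 16.7%, 17.3% and 22.2%, with 6 calls between libraries 1 and 2 and 1 between libraries 3 and 4 (0.327% and 0.0702% of all loci). Regions of at least 50 reads gave 55.1%, classes of 19.2%, 17.6% and 25.2% and a ratio of 3.62. Merging ends within 100 bases gave a median of 57.9% with 21.7% under 20%, and leaving out narrow regions gave 56.4% and a ratio of 2.84. The mean chi-square per degree of freedom was 6.73. Fewer reads removed thinly read loci by construction; otherwise the cause was not tested.

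Without thinning, 7, 1, 332 and 248 loci were called between libraries 1 and 2, 3 and 4, 1 and 3, and 1 and 4, against 0.690%, 0.237%, 23.4% and 18.0% of all loci. At an adjusted threshold of 0.01, Fisher's exact test called 76, 135 and 124 between libraries 1 and 4, 2 and 3, and 2 and 4, against 5.54%, 10.5% and 9.01% of all loci. A second thinning, added after seeing the data, called 4 between libraries 1 and 2 (0.434% of all loci).

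Leaving out each library in turn, with loci chosen again, gave 1180 to 1266 loci, medians from 57.8% to 61.8%, classes from 23.3% to 24.0% under 20%, 11.8% to 12.6% from 40% to under 60% and 30.4% to 34.6% at 80% or more, and variance ratios from 3.38 to 3.85. The difference of the median from the class up to 250 bases ran from -1.33 to 1.18 points and that from the intermediate class from -9.36 to -6.16. Calls ran from 157 to 259 between libraries 1 and 3 (11.2% to 18.3% of all loci), 149 to 223 between 1 and 4 (10.3% to 16.3%), 195 to 214 between 2 and 3 (15.5% to 16.4%) and 173 to 203 between 2 and 4 (14% to 16.4%). They were 2 between 1 and 2 (0.265% to 0.293%) and 1 between 3 and 4 (0.0431% to 0.163%). Without library 3 the difference from the class up to 250 bases changed sign. A named locus that stays within the rule keeps its regions and so its share by construction, and these values bear on no choice. Depth limits what can be called: of the 146 loci called between libraries 1 and 3, 91 were among the 413 with at least 1000 reads.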
